A study of Mus musculus with 14 samples.

Results

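Acetylation of histone H3 at lysine 27 (H3K27ac) was mapped in CD11b+ macrophages from brain tumours of vehicle-treated mice and set against non-specific IgG from the same kind of cells. The comparison held 6 of the 14 libraries of the series, 3 with the H3K27ac antibody and 3 with normal rabbit IgG, each deposited as a table of summits, the highest point of every peak given as 1 base. The host mice were NSG, a strain that lacks mature T, B and NK cells but keeps myeloid cells, and they carried T387 glioblastoma cells grown as an orthotopic xenograft in the brain. From day 7 after implantation these mice were given the solvent mixture, with 10% DMSO, 4 times per week for 3 weeks, and CD11b+ cells were then sorted from the dissociated tumours. The libraries are labelled as biological replicates, without naming the animals or saying whether any were pooled, and p-values below therefore speak of the spread between these samples alone.

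The units described are 22842 shared sites, out of 340704 regions formed by extending every H3K27ac summit by 250 bp and merging what overlapped. A shared site held a summit of all 3 H3K27ac libraries and of no IgG library. A related rule at genes gave 7669 marked genes of 21887 protein-coding genes, 35%. These genes had a summit within 1 kb of the 5′ end in all 3 H3K27ac libraries and no IgG summit within 250 bp of those summits. The summits of the 3 libraries did not have to lie in 1 merged region, so a marked gene can lack a shared site at its start. An IgG summit lay in the window of 3.5% of genes. Genes here and below are protein-coding genes unless said otherwise. Windows moved by 100 kb met the rule at 6.1% of genes. The deposited −log10 value of a summit was used only to rank summits within a library, and a percentile of 100 is the highest of that library. Fewer cells of a type and less acetylation per cell cannot be told apart in such bulk libraries.

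H3K27ac is laid down by the acetyltransferases p300 and CBP on nucleosomes beside active promoters and enhancers, and dense runs of it mark genes that define a cell type. In macrophages the ETS factor PU.1, the product of Spi1, opens many of these enhancers together with C/EBP, IRF, RUNX and AP-1 factors. Microglia and monocyte-derived macrophages share this base and differ in part of their enhancers. CD11b, the product of Itgam, is carried by microglia, macrophages and monocytes, and also by neutrophils.

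Promoters that stand for the main classes below are shown for reference as the 250 bases before the annotated start, 5′ to 3′ on the gene's strand, from RefSeq (GRCm38.p6, the assembly that mm10 names). Ctsd (cathepsin D, chr7:142387828-142388077, minus strand) and Atp6v1a (a subunit of the proton pump that acidifies lysosomes, chr16:44139260-44139509, minus strand) are 2 marked lysosomal genes, with the palindromic TCACGTGA of the CLEAR element read by TFEB and TFE3 in capitals.
Ctsd: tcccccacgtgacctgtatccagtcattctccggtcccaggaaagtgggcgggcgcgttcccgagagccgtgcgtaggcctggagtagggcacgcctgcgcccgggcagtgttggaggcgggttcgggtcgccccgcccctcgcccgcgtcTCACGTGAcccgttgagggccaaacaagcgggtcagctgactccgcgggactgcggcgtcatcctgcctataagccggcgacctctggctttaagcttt
Atp6v1a: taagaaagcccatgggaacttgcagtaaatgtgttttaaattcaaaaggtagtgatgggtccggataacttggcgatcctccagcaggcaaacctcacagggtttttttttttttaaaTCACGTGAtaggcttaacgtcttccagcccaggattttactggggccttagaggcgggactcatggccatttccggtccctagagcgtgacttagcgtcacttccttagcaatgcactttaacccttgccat
C1qc (a chain of complement C1q, chr4:136892915-136893164, minus strand) was marked and Mpo (the neutrophil granule enzyme myeloperoxidase, chr11:87793534-87793783, plus strand) had no summit in any H3K27ac library. Both are poor in CpG and hold the PU.1-type sequence GAGGAAGT, in capitals, on the minus strand of the C1qc window as ACTTCCTC and on the plus strand of the Mpo window.
C1qc: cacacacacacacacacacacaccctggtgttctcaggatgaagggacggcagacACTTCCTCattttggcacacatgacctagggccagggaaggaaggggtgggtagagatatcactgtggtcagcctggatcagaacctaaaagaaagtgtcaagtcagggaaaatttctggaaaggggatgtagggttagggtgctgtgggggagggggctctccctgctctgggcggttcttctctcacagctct
Mpo: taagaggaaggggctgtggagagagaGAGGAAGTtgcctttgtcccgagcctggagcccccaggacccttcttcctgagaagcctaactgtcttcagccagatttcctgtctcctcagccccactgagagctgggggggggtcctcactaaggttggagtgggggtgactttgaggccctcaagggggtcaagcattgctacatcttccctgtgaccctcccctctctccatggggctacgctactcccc
Pcnp (a nuclear protein gene, chr16:56029718-56029967, minus strand) had the highest lowest percentile over the 3 libraries, and its window is rich in CpG, with 23 CpG pairs against 2 in that of Mpo.
Pcnp: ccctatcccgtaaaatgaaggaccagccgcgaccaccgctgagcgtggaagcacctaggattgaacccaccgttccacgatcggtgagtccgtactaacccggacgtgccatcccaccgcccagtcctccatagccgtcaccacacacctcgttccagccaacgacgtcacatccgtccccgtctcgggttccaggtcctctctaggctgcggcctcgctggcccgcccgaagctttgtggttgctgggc

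The H3K27ac libraries held 208401, 53503 and 291042 summits in replicates 1, 2 and 3, and the IgG libraries held 18517, 9244 and 10191. Every H3K27ac library exceeded every IgG library, and the ratio of the geometric means was 12.3 (two-sided exact permutation test, p = 0.1, the smallest that 3 against 3 allows). Replicate 2 stood apart among the H3K27ac libraries: its list was the shortest, and 65.3% of its summits shared its lowest score, against 19.5% and 15.6% in replicates 1 and 3. Without it the ratio was 20.5, and the counts of sites, bins and list members that moved most when it was left out are also given without it below. The labels state a target depth and not the reads obtained, so the depth behind a summit is unknown.

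H3K27ac summits lay at gene starts more often than IgG summits. Of the H3K27ac summits, 13.2, 20.7 and 9.91% (replicates 1, 2 and 3) lay within 1 kb of a 5′ end, 14.6% ± 5.53 (SD, n = 3). Of the IgG summits 1.93, 2.29 and 1.76% did, 1.99% ± 0.274 (SD, n = 3), so that the groups did not overlap and differed by 12.6 percentage points (two-sided exact permutation test, p = 0.1, the smallest possible). Replicate 2, with the shortest list, had the highest share. With each list limited to its 9000 highest-scoring summits the share was 51.9% ± 4.81 in H3K27ac and 2.00% ± 0.286 in IgG (SD, n = 3 each), so the gap was wider at equal length.

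**Figure D1:**
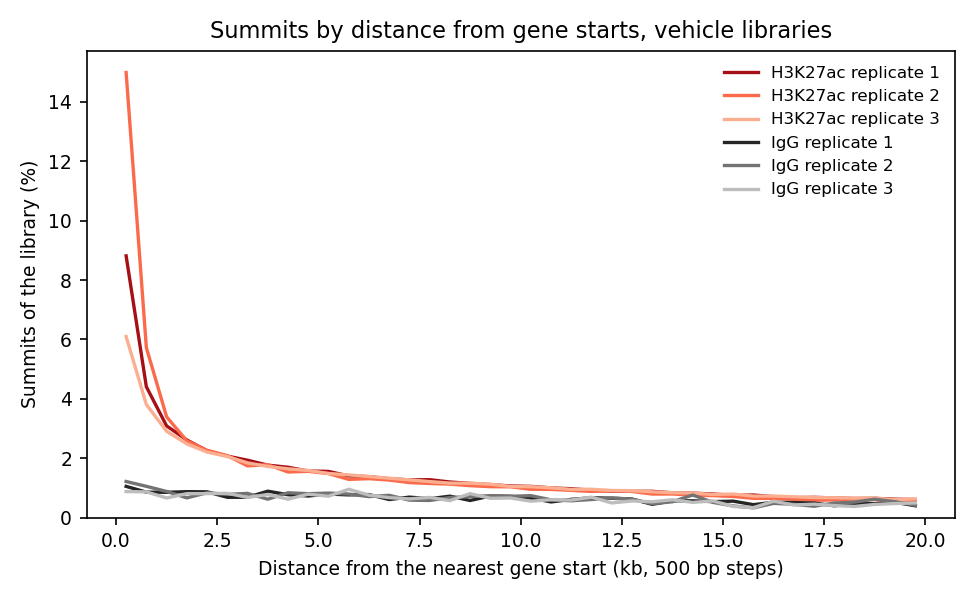
Share of each library's summits (%, y axis) in 500 bp steps of distance from the nearest gene start (kb, x axis), with 1 line per library. In the first step the H3K27ac libraries stand at 8.81, 14.98 and 6.10% and the IgG libraries at 0.883 to 1.22%, and the IgG lines stay at or below 1.22% over the 20 kb shown.

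Beyond the promoter the 2 kinds of library differed in the same way. Summits 1 to 10 kb from a start made up 29.3% ± 0.425 of the H3K27ac lists and 13.4% ± 0.157 of the IgG lists. Farther out and outside protein-coding genes the order turned, with 20.04% ± 3.10 in H3K27ac and 51.8% ± 1.55 in IgG (SD, n = 3 each, two-sided exact permutation test, p = 0.1 for both classes). Far from starts but inside genes, the shares were 36.0% ± 2.41 and 32.9% ± 1.20 (SD, n = 3 each), and here the groups overlapped (two-sided exact permutation test, p = 0.2).

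The H3K27ac libraries marked many of the same places and the IgG libraries almost none in common. Among the 9000 highest-scoring summits of each list, 33.7 to 48.9% lay within 250 bp of such a summit of another H3K27ac library. Each value is the mean of both directions of a pair of libraries. Between IgG libraries that share was 0.289 to 0.456%, and between H3K27ac and IgG libraries 0.172 to 0.361%. Of the merged H3K27ac regions 23390 held a summit of all 3 libraries, and 548 of these (2.34%) were set aside because an IgG library had a summit there. The 22842 that remained had a median width of 1162 bp (25th to 75th percentile 860 to 1618 bp) and covered 30.5 Mb. They held 24.1, 55.4 and 17.1% of the summits of replicates 1, 2 and 3. The count follows the shortest list: without replicate 2, 76467 regions met the rule, against 28755 without replicate 1 and 27784 without replicate 3.

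Of the shared sites, 7003 (30.7%) had their centre within 1 kb of a 5′ end, 6493 (28.4%) at 1 to 10 kb, 6444 (28.2%) beyond 10 kb inside a gene and 2902 (12.7%) beyond 10 kb outside protein-coding genes. The distal classes together made up 9346 sites, 40.9%. Promoter sites led the ranking: among the 1000 sites with the highest lowest percentile over the 3 libraries 70.6% were promoter sites, and among the top 100, 74% were. The split depends on the shortest list too. Without replicate 2, promoter sites were 15.5% and distal sites 52.3%. The order of the shared sites by percentile was similar between libraries to a moderate degree, with Spearman's rho of 0.507 for replicates 1 and 2, 0.666 for 1 and 3 and 0.448 for 2 and 3, given as a description over sites, which share a library and its depth.

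Of the genes that define macrophages, Spi1, Csf1r, Itgam, Ptprc, Cd68 and Adgre1 (F4/80) were all marked. Spi1 had percentiles of 94.7, 92.7 and 97.1 among all genes in replicates 1, 2 and 3. Csf1r, the receptor for the growth factor on which macrophages depend, had 85.5, 76.2 and 74.0, and Itgam, the gene of the sorted antigen, had 56.0, 67.1 and 63.5. Ptprc (CD45), carried by all leukocytes, had 49.8, 67.1 and 75.4. All 4 were marked and had no IgG summit in the window. In replicate 2, here and below, a gene percentile of 67.1 is that of its lowest score. It is the least that a gene with a summit can have there. The mean percentile of a gene over the 3 libraries had a median of 43.8 over all genes and 80.1 over marked genes, so Spi1 stood above the median of marked genes, and Csf1r, Itgam and Ptprc below it. Spi1 and Csf1r have no listed 5′ end here, so both gene ends were read, and Csf1r shares a window with Hmgxb3. Both ends were also read for other genes below, among them Tmem119, Actb, Ssna1, Ythdf3, Ctsb, Tyrobp, Bin1, Osm, Cxcl16 and Scarb1. Genes on chromosome 18, Mbp and Cd74 among them, were read in this way too. A summit counted for such a gene can lie at either end.

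Genes of resident microglia were marked in part. P2ry12, a purine receptor that guides microglial processes, had percentiles of 60.7, 67.1 and 90.5. Tmem119, a microglial membrane protein, had 73.5, 76.2 and 58.4. Cx3cr1, the fractalkine receptor, had 83.1 and 93.1 in replicates 1 and 3 and no summit within 1 kb of its start in replicate 2, and Sall1, a transcription factor of microglia, had 63.9 and 52.2 with no summit in replicate 2. The last pair therefore missed the rule through replicate 2 alone. Ccr2, the chemokine receptor of recruited monocytes, had a summit at its start only in replicate 3, at 63.5.

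Trem2, a lipid-sensing receptor of phagocytes, had percentiles of 87.1, 96.8 and 89.1, and Apoe, the lipid carrier, had 84.3, 76.2 and 75.4. Actb, a cytoskeletal gene active in most cells, had 78.4, 86.7 and 92.3. By mean percentile the order ran from Spi1 (94.8 ± 2.21) and Trem2 (91.0 ± 5.12) through Actb (85.8 ± 6.95), Apoe (78.6 ± 4.94), Csf1r (78.6 ± 6.09), P2ry12 (72.8 ± 15.7) and Tmem119 (69.4 ± 9.61) to Ptprc (64.1 ± 13.1) and Itgam (62.2 ± 5.66; SD, n = 3 libraries each). Neighbours in this order differed by less than the larger of their SDs, except Actb and Apoe. Spi1, Trem2 and Actb each lay above Itgam and Ptprc in all 3 libraries.

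**Figure D2:**
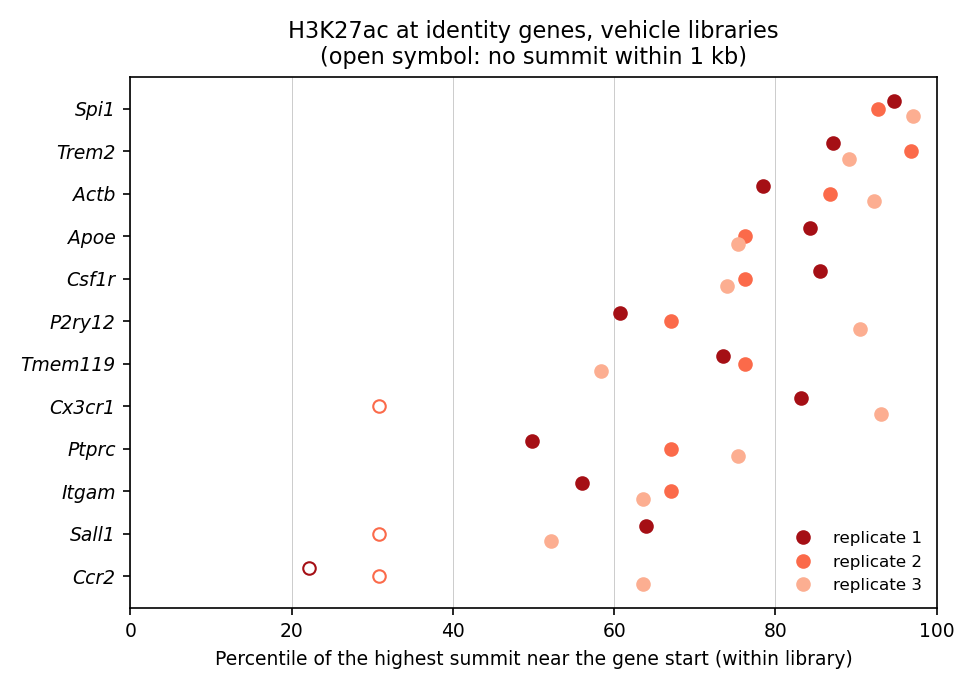
Percentile (x axis, within each library, 100 is highest) of the highest H3K27ac summit within 1 kb of the gene start for 12 genes, with 1 point per library. For Spi1, Csf1r, Tmem119 and Actb, which have no listed start, both gene ends were read. An open symbol means no summit, which ties at the bottom of that library. Cx3cr1 and Sall1 lack a summit in replicate 2, and Ccr2 lacks one in replicates 1 and 2.

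Shared sites away from the start lay in and around some of the same genes. Spi1 had 14 shared sites within 50 kb of its ends. Some of these lay at the starts of Psmc3 and Slc39a13 or nearest to Mybpc3. None had its centre within 1 kb of an end of Spi1, the nearest lying at 1699 and 1929 bp. The highest-ranked inside the gene, chr2:91096436-91098745, lay more than 10 kb from both ends and stood at percentiles of 98.8, 99.4 and 99.6 among the summits of replicates 1, 2 and 3. Cx3cr1, not marked at its start, had 20 shared sites within 50 kb, against a median of 2 over all genes. They include sites at the starts of its neighbours Xirp1 and Slc25a38. The highest of these lay inside the gene at chr9:120054564-120055551, 13239 bp from the nearest listed start, with percentiles of 97.2, 94.0 and 99.7. Sall1 had 1, inside the gene at chr8:89030886-89033178 with percentiles of 85.5, 74.0 and 87.0, and Ccr2 had 3, all outside the gene.

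The 12 marked genes with the highest lowest percentile were Pcnp, Cdc26, Prpf4, Flcn, Tor1aip2, Anapc2, Ssna1, Mrpl41, Pnpla7, Ythdf3, Glyr1 and Ndel1. Of these, Cdc26 with Prpf4, Anapc2 with Ssna1 and Mrpl41 with Pnpla7 share a promoter window and cannot be told apart. Tor1aip2 shares a window with Tor1aip1, and Glyr1 with Ubn1, which are not among the 12. Pcnp stood at 99.97, 99.95 and 99.77 in the 3 libraries. Flcn, folliculin, which governs lysosomal signalling to mTORC1 and TFE3, stood at 99.9, 99.7 and 99.98. Anapc2 and Cdc26 encode parts of the anaphase-promoting complex, Prpf4 a splicing factor, Mrpl41 a mitochondrial ribosomal protein and Ythdf3 a reader of methylated RNA. No IgG library had a summit in any of these windows.

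Over the 23 gene lists, 16 had a marked share above the 35% of all genes and 7 below. With lists of 30000 summits 13 did, and MHC class II and costimulation (14.3%) and monocyte-derived macrophage genes (3 of 20) then lay below the 21.5% of all genes, as neutrophil genes did. Lysosomal genes led, with 20 of 22 marked (median mean percentile 86.2, against 43.8 for all genes). Ctsb (cathepsin B) had 97.8, 92.7 and 97.5, Grn (progranulin) 98.0, 90.1 and 99.5 and Ctsd 99.0, 90.1 and 96.8. Tfeb and Tfe3, the factors that drive lysosomal genes, were both marked. Gaa and Neu1, lysosomal hydrolases, missed the rule because replicate 2 had no summit there. Ctsb shares a window with Fdft1.

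Macrophage receptors and adaptors were marked at 16 of 20. Laptm5, a lysosomal membrane protein of blood cells, had 97.9, 99.0 and 99.5 (replicates 1, 2 and 3), and Tyrobp (DAP12, the signalling partner of Trem2) had 95.1, 98.6 and 93.1. Of the macrophage transcription factors 15 of 20 were marked, among them Spi1, Cebpa, Cebpb, Runx1, Irf5, Zeb2 and Mef2a, the last at 90.3, 98.6 and 94.3. Irf8, Ikzf1 and Fli1 had summits in replicates 1 and 3 and not in replicate 2, Mef2c was set aside for an IgG summit, and Tfec had no summit in any H3K27ac library. Toll-like receptor and NF-kB genes were marked at 15 of 20, with Nfkbia, the inhibitor that NF-kB itself induces, at 99.2, 86.7 and 96.6 and the kinase Irak4 at 95.5, 96.8 and 95.9 (its window is shared with Pus7l). AP-1 and immediate early genes were marked at 13 of 20, with Junb at 90.3, 99.5 and 97.1 and Zfp36, which destabilises cytokine mRNAs, at 93.0, 96.8 and 98.4.

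Genes of antigen presentation and of the interferon response were marked in part. MHC class I and its peptide pathway were marked at 11 of 14, with Pdia3 at 98.6, 94.5 and 97.1 (window shared with Catsper2) and B2m at 87.7, 90.1 and 96.1, while H2-T23 had no H3K27ac summit. MHC class II and costimulation were marked at 7 of 14, with H2-DMa at 98.1, 86.7 and 97.5 (window shared with Brd2) and H2-Eb1 at 67.9, 90.1 and 86.1. H2-Ab1, Cd74 and Ciita, the class II master regulator, had summits in replicates 1 and 3 and not in replicate 2. Interferon response genes were marked at 14 of 21, led by Ifngr1 (99.2, 94.5 and 98.2) and Stat2 (95.1, 92.7 and 89.1, window shared with Apof). The receptor genes Ifnar1, Ifnar2 and Ifngr1 were marked, and so were the induced genes Ifit1, Ifit2, Oasl2, Usp18, Ifih1 and Ddx58, while Isg15, Rsad2, Bst2, Irf7 and Gbp2, also induced, lacked a summit in replicate 2.

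Lists drawn from macrophage states and functions were marked at 8 to 13 of 20. Disease- and lipid-associated macrophage genes were marked at 13 of 20, including Trem2, Apoe, Lpl, Fabp5, Lgals3, Plin2 and Abcg1, and not Spp1, Gpnmb, Itgax, Clec7a or Cst7. Phagocytic and scavenger receptors were marked at 11 of 20, with the HDL receptor Scarb1 at 80.6, 99.4 and 92.3 and Lrp1 at 92.8, 76.2 and 96.4, while Marco had no summit. Homeostatic microglia genes were marked at 10 of 20, with Bin1, a membrane-shaping protein, at 80.6, 76.2 and 86.8. Chemokines and cytokines were marked at 9 of 20, led by Osm (84.9, 99.5 and 93.1) and Cxcl16 (78.4, 92.7 and 92.7, window shared with Zmynd15), and including Ccl2, Ccl3, Ccl4, Tnf and Tgfb1. Il12b had no H3K27ac summit. Monocyte-derived macrophage genes were marked at 8 of 20, led by Lgals3 (92.4, 86.7 and 99.5) and Ccr1 (74.3, 92.7 and 95.0), and Chil3 had no summit.

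Complement genes fell below the all-gene share, at 4 of 15 marked. These were C1qa and C1qc, chains of the C1q that macrophages make, and the receptors C3ar1 (89.1, 76.2 and 82.4) and C5ar1. C1qc stood at 82.5, 92.7 and 72.5. C1qb, C3 and C2 had summits in replicates 1 and 3 and not in replicate 2, and Cd55 and Cd59a, which protect host cells, had no summit. Without replicate 2 complement stood at 9 of 15 marked, above the 49.0% of all genes.

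Genes used by nearly all cells served as a reference. Cytosolic ribosomal protein genes were marked at 18 of 20, with Rpl19 at 91.8, 97.6 and 96.8 and Rps23 at 91.8, 94.5 and 98.4. Housekeeping genes were marked at 11 of 15, with Gusb at 98.1, 86.7 and 94.3. The shares of macrophage receptors and transcription factors thus lay within the range of these reference lists, and the lists were not tested against each other.

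Markers of other cell types lay low, with 2 exceptions near the all-gene share. Neuronal genes were marked at 0 of 16, with 12 of 16 (Gad1 among them) without a summit in any H3K27ac library. Lymphocyte genes were marked at 1 of 21, the B-cell receptor subunit Cd79b (56.0, 67.1 and 72.5), with Cd8a at no summit. Astrocyte genes were marked at 1 of 12, Aldoc (69.7, 76.2 and 58.4), with Aqp4 and Atp1b2 at no summit. Endothelial and mural genes were marked at 2 of 14, Kdr (56.0, 82.3 and 54.4) and Cspg4 (54.7, 82.3 and 42.9), while Cldn5 and Myh11 had none. Hox genes, which pattern the trunk, were marked at 2 of 20, among them Hoxb4 (51.6, 67.1 and 72.5), and Hoxa11 and Hoxa13 had none.

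The exceptions were neutrophil and oligodendrocyte genes. Of the 17 neutrophil genes 6 were marked (35.3%): Csf3r (81.3, 67.1 and 86.1), S100a8 (68.8, 67.1 and 74.0), Cxcr2, Fpr2, Camp and Padi4. The granule and lineage genes Mpo, Ngp, Ly6g, Retnlg, Mmp9 and S100a9 had no summit in any H3K27ac library. Library by library, 58.8, 41.2 and 47.1% of the neutrophil genes had a summit in replicates 1, 2 and 3, against 55.7, 38.4 and 58.2% of all genes. The part of neutrophils in these libraries was not tested. Of the oligodendrocyte genes 4 of 12 were marked, Cnp (59.6, 86.7 and 77.8), Mbp (62.8, 82.3 and 75.4), Sox10 and Cspg4, while Olig1, Mobp and Pdgfra had no summit.

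Replicate 2 set many of these shares. Without it the marked share of all genes was 49.0%. Lysosomal genes were then marked at 22 of 22, MHC class I at 13 of 14, Toll-like receptor and NF-kB genes at 19 of 20, AP-1 and immediate early genes at 17 of 20 and interferon response genes at 19 of 21. Homeostatic microglia genes were marked at 18 of 20 in place of 10, disease- and lipid-associated genes at 19 in place of 13, chemokines and cytokines at 17 in place of 9, MHC class II and costimulation at 12 of 14 in place of 7 and monocyte-derived macrophage genes at 14 of 20 in place of 8. With a 500 bp window homeostatic microglia genes stood at 30% and phagocytic and scavenger receptors at 35%, against 29.5% of all genes. With lists of 30000 summits both stood at 25%, against 21.5%. With a 2.5 kb window they stood at 70 and 55%, against 39.5%. Without replicate 2 oligodendrocyte genes stood at 6 of 12, and neutrophil genes stayed at 6 of 17, below all genes. The oligodendrocyte list stood at 2 of 12 with a 500 bp window (16.7 against 29.5%). With lists of 30000 summits it stood at 0 of 12, and with a 2.5 kb window at 41.7 against 39.5%. The neutrophil list also lay below all genes with a 500 bp window (17.6%) and with lists of 30000 summits (11.8%). It did so too without H3K27ac replicate 1 or 3 and without IgG replicate 1. There its count stayed at 6 of 17 and the all-gene share was 35.5 to 36.0%. The list lay above all genes with a 2.5 kb window (47.1 against 39.5%) and without IgG replicate 2 (41.2 against 35.4%). Without IgG replicate 3 it stood at 35.294 against 35.286%.

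**Figure D3:**
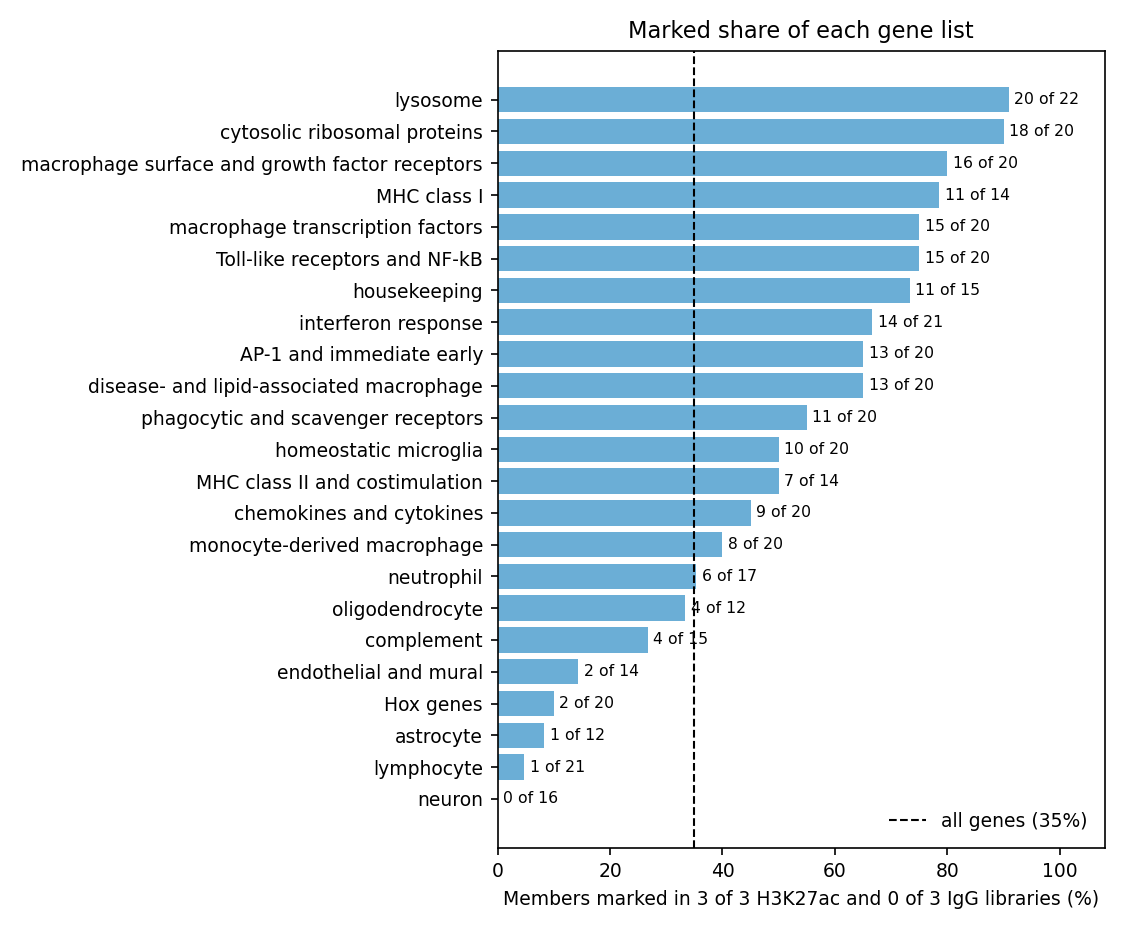
Share of the members of each of 23 gene lists (y axis) that were marked (%, x axis), with the counts beside the bars and the 35% of all genes as a dashed line. Lysosomal, ribosomal and macrophage receptor genes lie at the top and neuronal, lymphocyte and astrocyte genes at the bottom, with neutrophil genes on the line.

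Base composition went along with marking. Among 14731 genes with a single annotated start the CpG observed/expected ratio of the 250 bases before it had a median of 0.782 for marked genes, 0.213 for genes with no H3K27ac summit and 0.519 for all. In the lowest decile of the ratio 2.51% of genes were marked and in the highest 64.8%, while the share with an IgG summit stayed between 2.17 and 3.60%. The lists differed in this too. Macrophage transcription factors had a median ratio of 0.901 and macrophage receptors 0.267, and over all promoters 13.4% of the 8226 with a ratio up to 0.6 were marked and 58.8% of the 6505 above it. The receptors were marked at 6 of 10 promoters up to 0.6. The 9 complement promoters were all in that class and 3 were marked, a larger share than its 13.4%, although complement lay below the share of all genes. The 14 neutrophil promoters were all in that class too, and 6 were marked, also a larger share than 13.4%. Of 5 neuronal promoters above 0.6 none was marked.

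**Figure D4:**
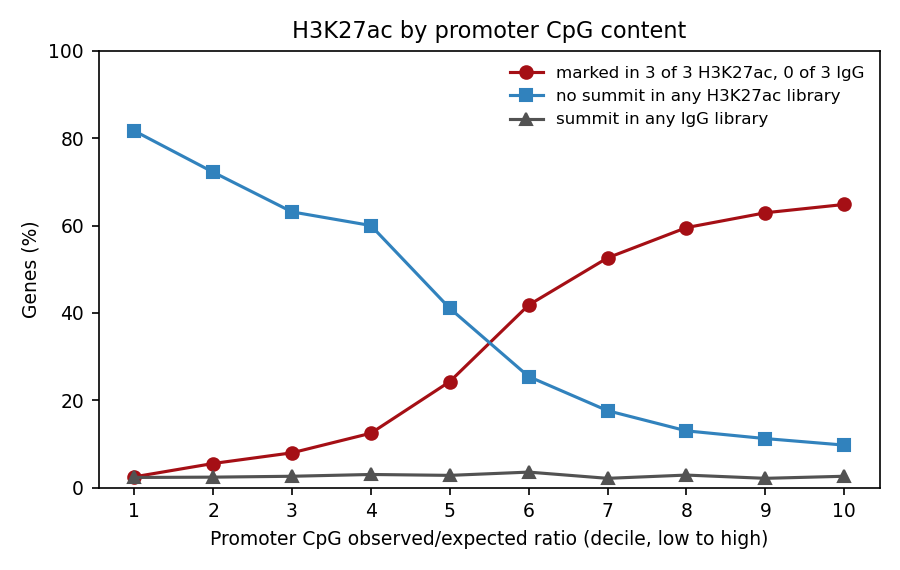
Share of genes (%, y axis) in each decile of promoter CpG observed/expected ratio (x axis, low to high). The marked share runs from 2.51 to 64.8%, the share without any H3K27ac summit from 81.7 to 9.78%, and the share with an IgG summit stays between 2.17 and 3.60%.

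The promoter letters were searched for 10 short sequences on both strands, as a description. The PU.1-type GAGGAAGT was in 2.72% of marked promoters, 1.56% of those without a summit and 2.18% of all. Among promoters with a CpG ratio under 0.6 it was in 4.79% of 1106 marked and 1.70% of 4934 without a summit. It was present in the marked C1qc and in the marked Fcgr4, an Fc receptor, and also in Mpo, which had no summit. Neutrophil promoters held it most often among the lists, at 4 of 14, followed by phagocytic and scavenger receptors at 3 of 15. It was in 0 of 11 macrophage receptor and 0 of 10 macrophage transcription factor promoters. Homeostatic microglia genes held it at 0 of 12 and disease- and lipid-associated genes at 0 of 13. TCACGTGA was in 1.99% of marked promoters, 0.240% of those without a summit and 0.964% of all, and in 3 of 15 lysosomal promoters (Ctsd, Atp6v1a and Mcoln1, the lysosomal calcium channel). Atp6v1a stood at 81.3, 82.3 and 97.3 in the 3 libraries.

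Other sequences differed between the classes in both directions. The ETS sequence with a CpG, CCGGAAGT, was in 7.77% of marked promoters and 0.635% of those without a summit (3.81% of all), and the GC box GGGCGG of SP factors in 64.2% and 19.7% (41.8% of all). TATAAA went the other way, at 5.09% and 22.0% (13.2% of all), and so did the AP-1 sequence TGANTCA, at 3.71% and 8.91% (6.27% of all). The NFY sequence CCAAT was near equal, at 38.7% and 36.8% (36.9% of all). The NRF1, CRE and C/EBP sequences were more frequent in marked promoters than in those without a summit. NRF1 was at 2.05 and 0.258% (1.04% of all) and CRE at 3.45 and 0.807% (1.98% of all). C/EBP was at 0.284 and 0.137% (0.204% of all), on 14 and 8 promoters. These sequences, CCGGAAGT, GGGCGG and TCACGTGA hold a CpG themselves, and marked promoters were richer in CpG. Under a CpG ratio of 0.6 each sequence kept its direction, C/EBP on 2 and 5 promoters. The part of base composition was not tested.

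Away from promoters, the highest-ranked distal sites lay both inside and outside protein-coding genes. The distal site with the highest lowest percentile over the 3 libraries lay outside them, chr8:84197250-84200708, at 99.99, 99.98 and 99.999 in replicates 1, 2 and 3 with 6, 4 and 8 summits. The next gene start is that of Nanos3 at 22.4 kb, and the Mir23a, Mir27a and Mir24-2 hairpins begin 7.81 kb from the site. A further site of the 4 highest outside protein-coding genes, chr8:84202381-84205138, lay between them, 3.38 kb from Mir23a. The other 2 were chr1:191279761-191282011, 25.9 kb from Nenf, and chr12:86831385-86834926, 51.7 kb from Irf2bpl, with 8, 5 and 9 summits, which overlaps the long non-coding RNA genes Gm51955 and Gm40491. Inside genes the highest were in Slc6a6, the taurine transporter (chr6:91712518-91713295, percentiles 99.997, 99.9 and 99.96), in Myo9b, in Arid1b, a subunit of the BAF remodeller, and in Nmt1.

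MicroRNAs, short RNAs that pair with target mRNAs through their seed, were read from a short list of myeloid and neural hairpins. Of 1005 hairpins, 153 (15.2%) had a shared site within 1 kb and 265 (26.4%) within 5 kb. Of 12 myeloid hairpins 6 did within 1 kb (3 of them the same cluster) and 8 within 5 kb, and of 7 neural hairpins 1, Mir219a-1. The mature forms beside such sites are shown because they are the products of the marked loci, with the seed, bases 2 to 8, in capitals.
miR-142a-3p: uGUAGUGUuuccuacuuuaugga
miR-21a-5p: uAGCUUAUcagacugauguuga
miR-22-3p: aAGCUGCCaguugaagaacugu
miR-23a-3p: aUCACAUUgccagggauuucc
miR-27a-3p: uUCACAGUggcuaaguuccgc
miR-24-3p: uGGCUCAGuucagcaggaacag
No 2 of these share a seed. The site next to Mir22, 267 bp away, stood at 99.6, 99.7 and 99.4 with 10, 3 and 8 summits, and that next to Mir142, a hairpin of blood cells, at 99.9, 98.4 and 98.4. The site next to Mir21a stood at 86.7, 91.1 and 99.5. Mir223 and Mir155, known from granulocytes and from activated macrophages, had their nearest shared site 111634 and 117396 bp away.

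Shared sites clustered at some loci. Of 78261 bins of 20 kb with any H3K27ac summit, 525 (0.671%) held 5 or more shared sites, 10 at most, and together these bins held 2971 sites (13.01%). In 436 of them no IgG library had a summit. Sites in dense bins were promoter sites in 13.1% of cases, against 30.7% of all shared sites, and distal ones in 45.5%. The bins overlapped 634 protein-coding genes (2.9% of all), and 31 bins overlapped none. Without replicate 2 there were 5118 such bins, which included all 525, and with lists of 30000 summits there were 41, of which 32 were among the 525. Without replicate 1 or 3 there were 877 and 888.

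The 3 densest bins, with 10 sites each, lay in Nfic, a nuclear factor I gene, in Capzb, which caps actin filaments, and in Zeb2, a transcription factor needed for macrophage and microglial identity. The Nfic bin (chr10:81400000-81419999) held 31, 12 and 25 H3K27ac summits, the Capzb bin (chr4:139220000-139239999) 29, 16 and 23, and the Zeb2 bin (chr2:45100000-45119999) 26, 12 and 24, in replicates 1, 2 and 3. The IgG libraries had no summit in the first and last of these and 1, from replicate 3, in the Capzb bin. The Nfic and Capzb bins held no promoter site, and the Zeb2 bin held 3. With lists of 30000 summits they held 4, 2 and 1 sites and were no longer dense.

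**Figure D5:**
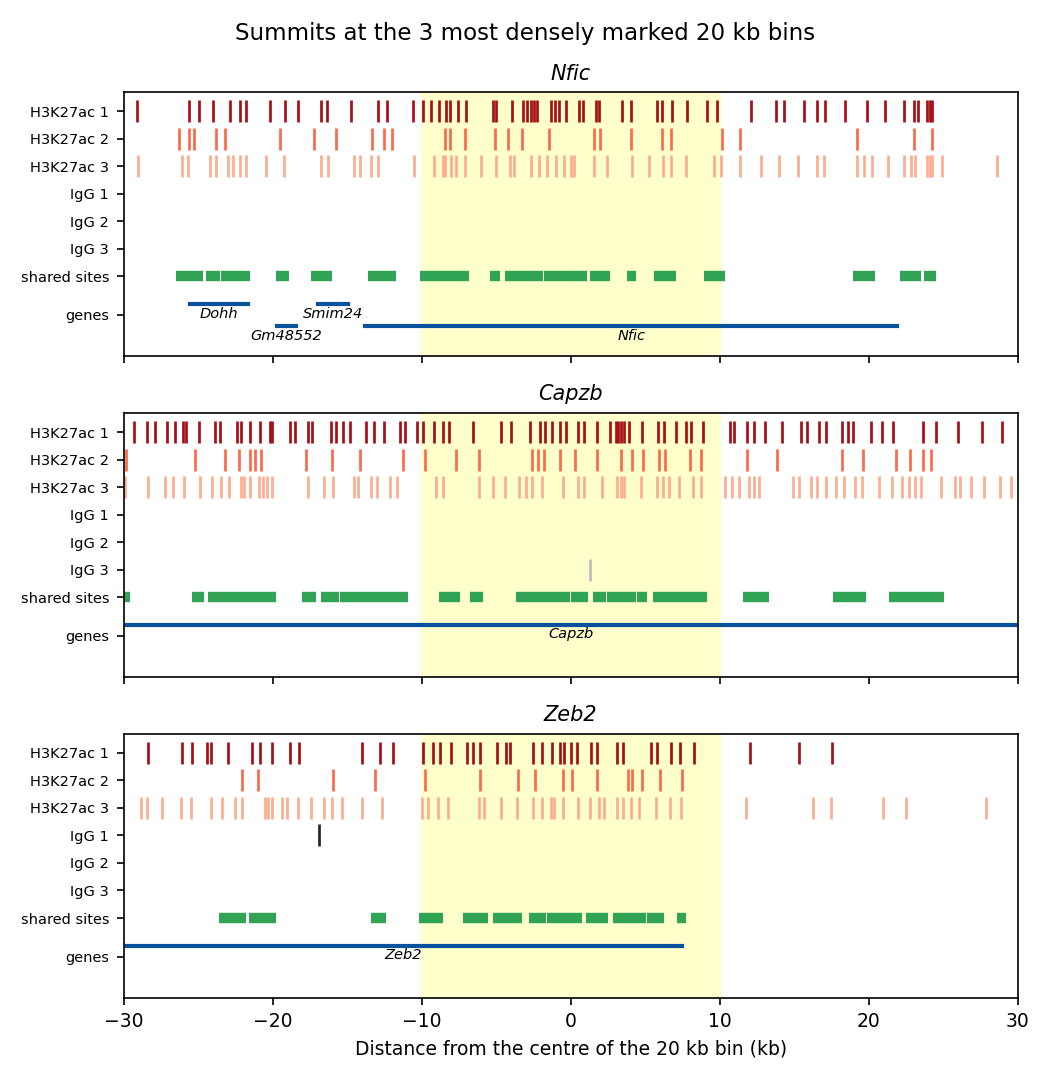
H3K27ac and IgG summits (ticks, 1 row per library), shared sites (green) and genes (blue) around the 3 densest 20 kb bins (shaded), by distance from the bin's centre (kb, x axis). The H3K27ac rows are filled across each bin, and the IgG rows hold 1 summit inside the 3 bins together.

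Bins with 9 sites followed. The first, at chr2:167760000-167779999, overlapped no protein-coding gene but the long non-coding RNA genes Gm32287 and Gm14321, and lay 69.6 kb from Cebpb, the C/EBP factor of activated macrophages, with 35, 16 and 35 summits and sites over 17184 bp of the 20 kb. The bin of Ctsd (chr7:142380000-142399999) held 36, 14 and 34, the most summits in replicate 1 among the 12 densest. Others lay in Zfp710, Tns3 (tensin 3, of cell adhesion), Arhgap45 and Polr2e, Cdh23 and Vsir (the immune checkpoint VISTA), Sipa1l2 and Inpp5d (the phosphatase SHIP1, which restrains signalling in blood cells). The bin at chr19:5800000-5819999 overlapped no protein-coding gene but Malat1, a nuclear long RNA, and lay 4.71 kb from Neat1. With lists of 30000 summits the bins near Cebpb, of Ctsd and of Zfp710 kept 5 or more sites (6, 5 and 6) and the other 9 of the 12 had fewer.

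Members of 13 of the 23 lists overlapped dense bins, at 5 to 35% of a list's members against 2.9% of all genes. Cytosolic ribosomal protein, AP-1 and immediate early, chemokine and cytokine, and monocyte-derived macrophage genes did at 2 of 20 each. Of disease- and lipid-associated genes 7 of 20 did (Abca1, Abcg1, Apoe, Cd63, Ctsb, Ctsd and Lgals3), of homeostatic microglia genes 6 of 20 (Crybb1, Csf1r, Cx3cr1, Ltc4s and Selplg among them), of macrophage transcription factors 6 of 20 (Cebpb, Etv6, Fli1, Mitf, Nr4a1 and Zeb2), of lysosomal genes 6 of 22 and of complement genes 4 of 15 (C1qa, C1qb, C1qc and C5ar1). The Cx3cr1 bin, chr9:120040000-120059999, held 8 shared sites and 68 H3K27ac summits with no IgG summit, although the gene's start was not marked. Neuronal, lymphocyte, neutrophil, astrocyte, oligodendrocyte, endothelial and mural, Hox, housekeeping and both MHC lists had 0 members in such a bin. Long genes meet more bins, and the median gene length was 18.01 kb for the disease- and lipid-associated list, 17.6 kb for microglia, 27.1 kb for macrophage transcription factors, 20.3 kb for lysosome and 45.0 kb for neurons, against 17.2 kb for all genes. Its part in these counts was not tested.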

How the data were processed

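CUT&Tag with H3K27ac or IgG antibody was done on sorted cells fixed with 0.1% formaldehyde, per the labels' protocols. Each deposited file lists the summits of 1 library with a −log10 value per summit. The submitters' processing notes name mm10, MACS2 2.2.9.1, Bowtie2, HOMER and DESeq2. What each did, the calling threshold and any use of IgG in calling: not given in the sources used here. The deposited value may be a −log10 p-value or q-value. It had not been normalized between libraries.

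Summits were extended by 250 bp and merged. 5′ ends came from RefSeq promoters for 17492 genes, and both gene ends were used for the other 4395 (36% and 31.2% marked). Gene percentiles rank the highest summit within 1 kb of a start over all genes, and site percentiles rank a site's highest summit among the library's summits. The lowest score of replicate 2 ties at a site percentile of 32.6 and a gene percentile of 67.1. Genes without a summit in replicate 2 tie at 30.8. Of marked genes 27.8% shared a window with another gene, against 14.9% of all. The lists name 402 genes, of which 401 matched the table. Single values were compared by exact permutation of the 6 libraries. As a check of the code, summits were planted near the starts of 200 genes (of 21887) in every simulated H3K27ac list, and 100% were recovered. The simulated background was sparser than the real lists, so this does not measure recovery there. Python 3.11.15, numpy 2.4.6, pandas 2.3.3, scipy 1.17.1 and matplotlib 3.10.9 were used.

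The members and gene lists were chosen with earlier results of these data known. Named genes were 12 fixed genes, the 12 marked genes with the highest lowest percentile, in each list the 2 marked members with the highest mean percentile and up to 2 without a summit in alphabetical order, the genes nearest to the 8 highest distal sites and those in the 12 densest bins. Other list members and the promoters and microRNAs printed were chosen after their values were seen. Some list members are counted and not reported here by name.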

Additional observations from a re-analysis of the deposited data

How the results depend on the processing

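The 8 pracinostat libraries were not used. Summits over IgG stayed at 8.77 to 20.5 times with each library left out in turn (two-sided exact p of 0.1 to 0.2), and the gap in the share near starts stayed at 9.58 to 14.98 points. Same-numbered H3K27ac and IgG libraries correlated at −0.0325, 0.0224 and 0.0812 over 2570 bins of 1 Mb. Different-numbered ones correlated at −0.0610 to 0.0743. IgG summits rarely recurred even between IgG libraries, so these values cannot show whether the replicate numbers pair the samples. With the replicate block the ratio and the gap were 12.3 and 12.6, each with a two-sided exact p = 0.25, the smallest 3 pairs allow.

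With 30000 summits per H3K27ac list there were 7082 shared sites, 4695 marked genes, 41 dense bins, 25.1% distal and 55.7% promoter sites. With a 100 bp extension 35.7% of sites were distal and 38.1% at promoters, and with 500 bp 44.9% and 26.4%. Distal sites were 52.3% when counted beyond 5 kb and 22.96% beyond 25 kb. Dense loci numbered 90 in 10 kb bins and 1014 when neighbouring sites were stitched into loci. With each library left out in turn, shared sites ranged from 22984 to 76467, marked genes from 7723 to 10721, dense bins from 536 to 5118, distal sites from 40.9 to 52.3%, promoter sites from 15.5 to 30.7% and lists above the all-gene share from 15 to 17. The rule asks for all H3K27ac libraries and no IgG library, so leaving a library out loosens it. The counts of sites, genes and dense bins rose each time, and these ranges cannot show how far they could fall. The reads behind each list are unknown.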

Other observations

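The X chromosome was marked less than the autosomes. Of 966 genes on X 156 were marked (16.1%), against 29.4 to 45.0% on single autosomes. X held 1.47, 1.33 and 2.05% of the H3K27ac summits in replicates 1, 2 and 3 and 5.30, 5.83 and 6.72% of the IgG summits, so the groups did not overlap (two-sided exact permutation test, p = 0.1, the smallest that 3 against 3 allows). None of the 6 libraries had a summit on Y.

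IgG summits rarely recurred. Of 37591 merged IgG regions 1 was present in 3 libraries and 269 in 2, against 6.87% of H3K27ac regions in 3. Among the 23390 regions with all 3 H3K27ac libraries, 8 held a summit of 2 or more IgG libraries. A pair of them, chr17:39842937-39846926 and chr17:39847587-39848925, overlapped Rn18s-rs5, a pseudogene related to 18S ribosomal RNA, and the first held a summit of all 6 libraries. Another lay at Relb, an NF-kB subunit, 400 bp from its start with H3K27ac percentiles of 99.0, 95.8 and 99.8, and so left Relb out of the marked genes.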
